A study of Mus musculus with 18 samples.

Results

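Interferon-stimulated genes, the genes that cells switch on when they sense an interferon, were followed in the nasal mucosa of mice as a set of 36 named genes. Its members are the rows of the deposited count table whose gene name is on the list, and no measured value was used to choose them. All 36 were found among the 54532 genes of the table, and all 36 were among the 18291 genes that passed the filter on low counts. Poly(A) RNA was sequenced in 18 libraries, with 6 libraries in each of the groups C10, CRS and CON. The C10 group is read here as mice given papain and C10, since the protocol describes this compound as a treatment of CRS mice. C10, which the study's title describes as an inhibitor of the enzyme APE1, was instilled at 10 mg/mL and 10 µL into each nostril, daily for 10 days counted from the start of papain. The CRS group, a model of chronic rhinosinusitis, received papain, a plant protease, through the nose: 20 µg in 20 µL of buffered saline on days 0 to 2 and again on days 7 to 11. What the CON mice received is not given in the labels, and neither are strain, sex, age, a vehicle for C10 or whether each library came from its own mouse. P-values below therefore measure the spread between libraries. C10 was compared with CRS and with CON, and CRS with CON, so the 3 comparisons share libraries.

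Interferons bind receptors on the cell surface, and receptor-bound kinases then phosphorylate transcription factors, Stat2 among them. Stat2 and Irf9 are parts of a complex that binds a DNA element called the interferon-stimulated response element, or ISRE. Interferon gamma acts mainly through another element, the gamma-activated site, or GAS. The genes switched on in this way include sensors of foreign nucleic acid, enzymes and proteins that block viruses, and brakes that end the response. In the airway lining the programme is known for its part in the defence against respiratory viruses, and a low level is often present without infection.

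The short promoter stretches shown here carry letters that match the ISRE. They were taken from genes with a match, so they do not show how alike all members are in sequence. RefSeq promoter windows of build GRCm38.p6, the build also called mm10, each hold 250 bases before and 50 bases after a transcript's start. A window was found for 27 of the 36 genes, and Dhx58, Zbp1, Oas2, Mx1, Mx2, Usp18, Parp9, Parp14 and Rtp4 had no entry. The letters GAAANNGAAA were searched on both strands, so that TTTCNNTTTC counts as the same motif, and neighbouring matches may overlap. They were found in the windows of 16 of the 27 genes (59.3%), against 3.44% of all 32851 windows and 4.02% of the 13059 tested genes with a window. Of these 16 genes, 8 held at least 2 matches. The GAS letters TTCNNNGAA were found for 6 of the 27 genes (22.2%), against 8.30% of all windows. A match describes the letters only and is not a measured binding site. Capitals mark the matches in the stretches that follow, each read 5′ to 3′ on the strand of its gene. Isg15 lies at chr4:156200860-156200911 on the minus strand, and its matches overlap one another. Bst2 lies at chr8:71537572-71537617 on the minus strand, Ifit1 at chr19:34640770-34640828, Ifit3 at chr19:34583358-34583431 and Ifit3b at chr19:34607754-34607827, all 3 on the plus strand. Gbp2 lies at chr3:142620589-142620628 and Stat2 at chr10:128270261-128270300, both on the plus strand, and Rsad2 at chr12:26456548-26456587 on the minus strand.
Isg15: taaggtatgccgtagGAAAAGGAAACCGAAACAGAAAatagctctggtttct
Bst2: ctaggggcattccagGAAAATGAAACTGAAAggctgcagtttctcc
Ifit1: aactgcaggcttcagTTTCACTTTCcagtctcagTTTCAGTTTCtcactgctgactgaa
Ifit3: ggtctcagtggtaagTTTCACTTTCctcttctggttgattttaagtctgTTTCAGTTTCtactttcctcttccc
Ifit3b: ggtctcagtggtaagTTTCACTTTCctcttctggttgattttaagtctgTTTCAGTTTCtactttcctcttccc
Gbp2: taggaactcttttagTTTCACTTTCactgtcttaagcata
Stat2: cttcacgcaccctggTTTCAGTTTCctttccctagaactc
Rsad2: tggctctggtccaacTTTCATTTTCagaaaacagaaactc

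The Isg15 window held 3 matches, and those of Ifit1, Ifit3, Ifit3b and Bst2 held 2 each. The stretches of Ifit3 and Ifit3b were identical over all 74 bases. Cmpk2, which lies beside Rsad2 on chromosome 12 in the opposite orientation, had no match to either motif in its window at chr12:26468965-26469264 on the plus strand. Its window is printed whole because Cmpk2 is also the gene that followed the others least across libraries. Lack of a match did not go with this in general. The 11 genes with a window and no ISRE match had a median Pearson r of 0.87 with the mean of the other members. Their r ran from 0.09 for Cmpk2 to 0.97 for Oasl2.
Cmpk2: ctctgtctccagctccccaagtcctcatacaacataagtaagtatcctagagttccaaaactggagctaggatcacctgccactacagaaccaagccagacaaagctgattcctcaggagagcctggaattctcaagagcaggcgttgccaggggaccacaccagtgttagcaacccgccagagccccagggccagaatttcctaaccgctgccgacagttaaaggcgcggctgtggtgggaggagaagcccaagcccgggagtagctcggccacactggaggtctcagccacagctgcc

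Each C10 library held 15883573 to 18128186 counts, each CRS library 16531779 to 17523368 and each CON library 16510920 to 18433866. Values are given as CPM, counts scaled to library size, and a floor of 3 counts equals 0.163 to 0.193 CPM, which covers counting error only, and the lowest count of any member in any library was 13. Markers of airway epithelium, ciliated cells, olfactory neurons, sustentacular cells and nasal glands were present in every group, and none of those in the table was at 0 in all libraries. CRS 2 stood apart from all other libraries for the interferon-stimulated genes. The medians over the members, most of their correlations and some of the fold changes are given with and without it.

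None of the 36 genes differed between groups at an edgeR adjusted p under 0.05. In C10 against CRS, 0 genes were called, where edgeR called 0.0820% of all genes tested, and 0 members had an unadjusted p under 0.05, against 13.2% of all genes. In C10 against CON, 0 were called, against 0.159% of all genes, and 0 had an unadjusted p under 0.05, against 13.1%. In CRS against CON, 0 were called, against 0.00547% of all genes, and 2 had an unadjusted p under 0.05, against 14.0%. The share of all genes called rested on CRS 1: without it edgeR called 994 of 18452 genes, or 5.39%, in CRS against CON, again 0 members. In that fit 4 of the 36 members had an unadjusted p under 0.05, against 4509 of all 18452 genes. DESeq2 also called 0 members in each comparison, where it called 1.91% of all genes in C10 against CRS, 1.74% in C10 against CON and 0.979% in CRS against CON. Limma-voom with quality weights called 0 members in each, where it called 3.00%, 1.38% and 5.14% of all genes in those comparisons. For every one of the 36 genes the libraries of the groups overlapped in all 3 comparisons. The share of all genes tested with such overlap was not counted, so this does not set the members apart. Fewer cells of a type and less RNA per cell cannot be told apart in RNA of whole tissue.

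**Figure D1:**
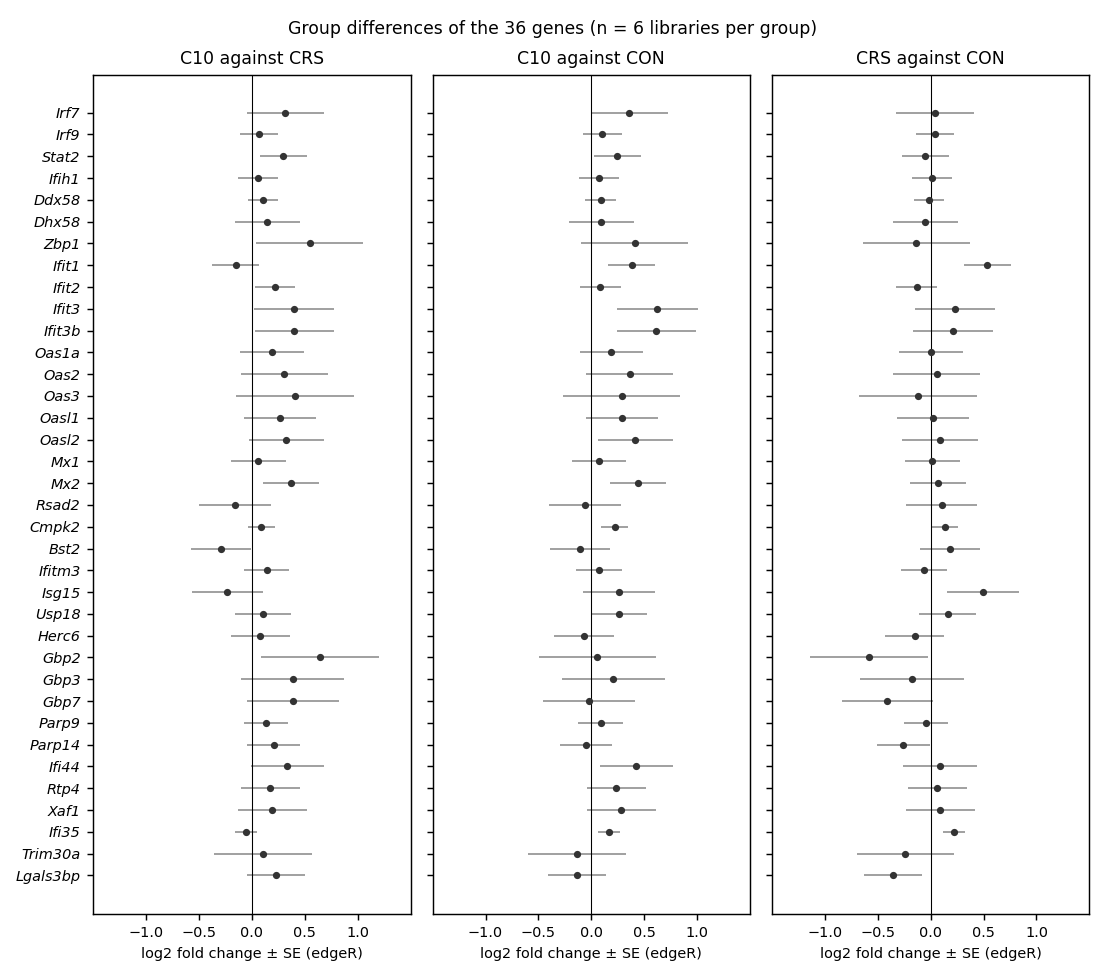
Log2 fold changes of the 36 genes from edgeR (points) with 1 standard error to each side (bars), for C10 against CRS, C10 against CON and CRS against CON, with 6 libraries per group. Points right of 0 are higher in the group named before "against". No gene passed an adjusted p of 0.05, and Gbp2, Oas3 and Zbp1 have the widest bars.

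The median log2 fold change over the members was 0.19 in C10 against CRS, with 31 of 36 above 0, against 0.0084 over all genes tested. It was 0.20 in C10 against CON, with 29 of 36 above 0, against 0.012 over all genes, and 0.017 in CRS against CON, with 21 of 36 above 0, against 0.0045. These medians rested on single libraries. Without CRS 2 the median of C10 against CRS was 0.038 with 20 genes above 0, and without C10 3 it was 0.0059 with 19 above 0. Leaving out C10 1 gave 0.11 and leaving out CRS 1 gave 0.30. In C10 against CON the median was 0.0013 without C10 3, with 18 genes above 0, and it was 0.10 without C10 1, 0.13 without CON 1 and 0.30 without CON 4. In CRS against CON it ran from -0.09 without CRS 1, with 13 genes above 0, to 0.17 without CON 4, with 30 above 0. It was -0.07 without CON 1, with 9 above 0, 0.15 without CRS 2, with 30 above 0, and -0.02 without CRS 6, with 14 above 0. Without CRS 2, edgeR called 0.438% of all genes in C10 against CRS and 0.00541% in CRS against CON, and again 0 members in both.

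Levels per gene length spanned a wide range. The mean level over the 18 libraries ran from 0.633 FPKM, a unit that scales for library size and gene length, for Herc6 to 282 FPKM for Ifitm3, with a median of 7.52 FPKM over the members. Ifitm3, a membrane protein that blocks the fusion of viruses in endosomes, ranged from 177 to 262 CPM in C10, with a median of 188. Its CRS libraries ranged from 78.2 to 269 CPM with a median of 188, and its CON libraries from 137 to 259 CPM with a median of 199. CRS 2 was the lowest of all libraries and CRS 1 the highest, so the CRS group enclosed the other groups. Lgals3bp, a secreted glycoprotein that binds galectins and integrins, came next with a mean of 95.6 FPKM. Bst2, or tetherin, which holds budding virus on the cell surface, averaged 55.4 FPKM.

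**Figure D2:**
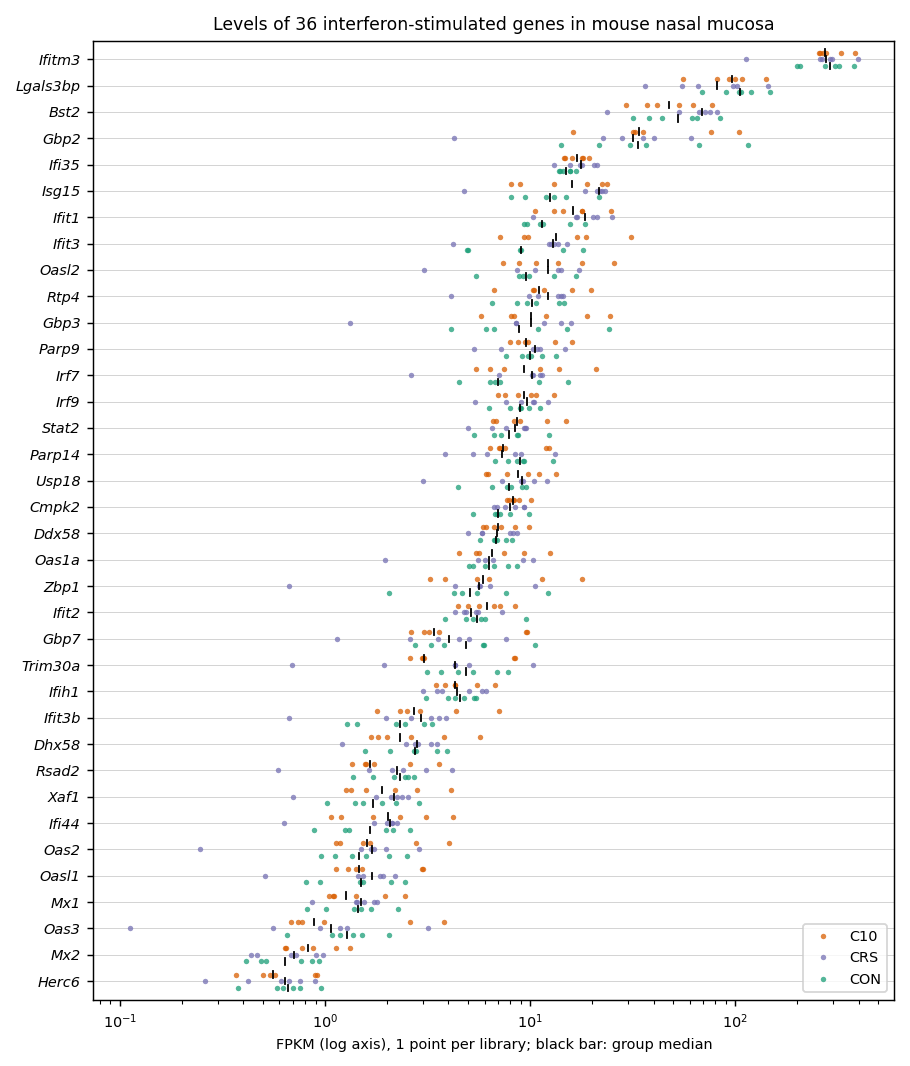
Levels of the 36 genes in FPKM on a log axis, with 1 point per library, coloured by group, and a black bar at each group's median. Genes are ordered by mean level, from Ifitm3 at the top to Herc6 at the bottom, and the points of C10, CRS and CON overlap in every row.

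The transcription factors of the pathway were compared first. Irf7, the factor that amplifies the production of interferon alpha (ENSMUSG00000025498, chromosome 7, 141262706 to 141266481), had 21.1, 35.7 and 79.6 CPM as lowest, median and highest value in C10. It had 10.1, 39.2 and 43.4 CPM in CRS and 17.2, 26.5 and 57.9 CPM in CON. The highest library was C10 3 and the lowest CRS 2. Phrf1 overlaps Irf7 on the opposite strand, and the sources used here do not say whether the counts keep strand. If they do not, reads of the 2 genes cannot be told apart where they overlap. Irf9, the DNA-binding part of the interferon complex, varied less, with 38.1, 51.2 and 71.1 CPM in C10, 29.6, 52.2 and 65.7 CPM in CRS and 34.4, 48.7 and 60.8 CPM in CON. It overlaps Rnf31. Stat2, its partner (ENSMUSG00000040033, chromosome 10, 128270559 to 128292849), had 39.6, 51.9 and 89.6 CPM in C10, 29.9, 50.3 and 56.6 CPM in CRS and 31.8, 47.5 and 73.7 CPM in CON. Its highest library was again C10 3. Stat2 had the second smallest p of the members above 0 in C10 against CRS, and it did not pass (log2 fold change 0.30 ± 0.22 SE, edgeR adjusted p = 0.608). The value for Stat2 was 0.13 without C10 3 and 0.18 without CRS 2.

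Among the sensors, Ddx58 and Ifih1 recognise double-stranded RNA in the cytoplasm and are better known as RIG-I and MDA5. Ifih1 had 29.0, 35.8 and 55.4 CPM in C10, 25.0, 36.3 and 50.01 CPM in CRS and 25.6, 37.5 and 44.6 CPM in CON. Ddx58 had 42.5, 49.6 and 70.4 CPM in C10, 35.8, 48.8 and 61.2 CPM in CRS and 40.7, 48.7 and 57.7 CPM in CON. The group medians of both genes lay within 2 CPM of each other. Zbp1, a sensor of nucleic acid in the Z form that can start cell death, spread far more widely, with 11.7, 21.1 and 63.5 CPM in C10, 2.41, 19.9 and 37.3 CPM in CRS and 7.27, 18.1 and 43.5 CPM in CON. Its highest library, C10 3, was 26.3-fold above its lowest, CRS 2. The remaining sensor, Dhx58 (LGP2), which tunes the response of the other RNA sensors, ranged 4.68-fold between the same libraries.

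The Ifit proteins bind viral RNA and stop its translation. Ifit1 (ENSMUSG00000034459, chromosome 19, 34640871 to 34650009) had 28.8, 43.6 and 66.3 CPM in C10, 28.1, 49.2 and 67.1 CPM in CRS and 25.0, 30.6 and 49.97 CPM in CON. In C10 and in CRS, 5 of 6 libraries lay above the CON median, and the groups overlapped. Ifit1 had the smallest p of all members in CRS against CON, with a log2 fold change of 0.54 ± 0.22 SE and an unadjusted p of 0.0262, and it did not pass (edgeR adjusted p = 0.295). In C10 against CON its log2 fold change was 0.38 ± 0.22 (edgeR adjusted p = 0.473), and in C10 against CRS it was -0.15 ± 0.22 (edgeR adjusted p = 0.832). Without C10 3 the value was 0.23 in C10 against CON and -0.30 in C10 against CRS, and in C10 against CRS it was -0.28 without CRS 2 and -0.04 without CRS 6. Both comparisons with CON use the same 6 CON libraries. Ifit1 also had the highest share of its log2 variance between groups, 25.6%, against a median of 5.24% over the members and 15.5% over all genes tested. Ifit3 had 12.7, 23.6 and 54.5 CPM in C10, 7.48, 22.7 and 26.6 CPM in CRS and 8.64, 15.8 and 31.7 CPM in CON. For Ifit3 and its near-identical copy Ifit3b, the division of reads between the copies is uncertain, since the counting tool is not given in the sources used here. Ifit2 ranged 2.48-fold over the 18 libraries and Ifit3b 10.4-fold.

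The OAS enzymes make a short messenger that activates an RNA-cutting enzyme, and Oasl1 and Oasl2 are their OAS-like relatives. Oas2 had 5.13, 7.22 and 17.9 CPM in C10, 1.11, 7.67 and 12.8 CPM in CRS and 4.31, 6.59 and 11.2 CPM in CON. Oasl2, the most abundant of the family in CPM, had 47.8, 78.6 and 164 CPM in C10, 19.8, 77.9 and 111 CPM in CRS and 35.2, 61.5 and 107 CPM in CON. All 5 family members were lowest in CRS 2, and their widest spread was that of Oas3, whose highest library was 33.6-fold above the lowest, the widest of the 36 genes. At 13 to 434 counts per library, Oas3 was counted in every library. Reads of Oas1a may be shared with close copies in the same cluster.

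Other antiviral effectors held the members that moved least with the rest. Mx1, a GTPase that blocks influenza virus in mice, had 4.01, 4.86 and 9.34 CPM in C10, 3.34, 5.73 and 6.70 CPM in CRS and 3.12, 5.51 and 8.68 CPM in CON. Mx2, its relative (ENSMUSG00000023341, chromosome 16, 97535308 to 97560900), which the files annotate as a polymorphic pseudogene, had 2.35, 3.02 and 4.83 CPM in C10, 1.61, 2.53 and 3.63 CPM in CRS and 1.502, 2.33 and 3.40 CPM in CON. Its highest library was C10 5. Mx2 had the smallest p of the members in C10 against CRS, at a log2 fold change of 0.37 ± 0.26 SE (edgeR adjusted p = 0.588), and it stood at 0.44 ± 0.26 in C10 against CON (edgeR adjusted p = 0.488). Without C10 5 Mx2 stood at 0.21 in C10 against CRS and at 0.29 in C10 against CON, and without CRS 2 the value in C10 against CRS was 0.25. Rsad2, or viperin, which makes an altered nucleotide that stops viral polymerases, had 5.998, 7.29 and 15.8 CPM in C10, 2.60, 9.74 and 18.1 CPM in CRS and 5.97, 10.2 and 11.8 CPM in CON. Cmpk2, a nucleotide kinase of mitochondria (ENSMUSG00000020638, chromosome 12, 26469204 to 26479837), had 32.8, 34.997 and 42.2 CPM in C10, 27.9, 33.5 and 39.7 CPM in CRS and 22.03, 29.5 and 41.8 CPM in CON. It had the smallest p in C10 against CON and did not pass (log2 fold change 0.22 ± 0.13 SE, edgeR adjusted p = 0.468). Without CON 5 the value for Cmpk2 was 0.13.

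Bst2 had 27.1, 43.4 and 70.1 CPM in C10, 21.7, 62.3 and 72.7 CPM in CRS and 29.1, 48.2 and 76.4 CPM in CON. Apart from CRS 2, the lowest CRS library held 48.9 CPM, above the C10 median. In C10 against CRS its log2 fold change was -0.29 ± 0.28 SE (edgeR adjusted p = 0.722), the smallest p of the members below 0, and in C10 against CON it was -0.11 ± 0.28 (edgeR adjusted p = 0.8995). The value in C10 against CRS was -0.47 without CRS 2, -0.45 without C10 3 and -0.18 without C10 2. In C10 against CON it ran from -0.27 without C10 3 to 0.057 without CON 4, and it was 0.0037 without C10 2.

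Isg15 encodes a small protein that is attached to others much as ubiquitin is, Herc6 the ligase that attaches it in mice, and Usp18 the protease that removes it and also dampens the interferon receptor. Isg15 (ENSMUSG00000035692, chromosome 4, 156199424 to 156200818) had 6.21, 12.2 and 18.002 CPM in C10, 3.65, 16.6 and 17.3 CPM in CRS and 6.19, 9.58 and 16.5 CPM in CON. The other 5 CRS libraries lay close together at 14.1 to 17.3 CPM, and CRS 2 lay below every other library. In CRS against CON the log2 fold change was 0.49 ± 0.34 SE (edgeR adjusted p = 0.527), and in C10 against CRS it was -0.23 ± 0.34 (edgeR adjusted p = 0.835). Without CRS 2 Isg15 stood at 0.70 in CRS against CON and -0.44 in C10 against CRS, and without C10 2 it stood at -0.10 in C10 against CRS. Usp18 had 17.3, 24.8 and 37.6 CPM in C10, 8.54, 25.6 and 33.8 CPM in CRS and 12.5, 22.3 and 27.0 CPM in CON, and Herc6 ranged 3.60-fold over the libraries.

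The guanylate-binding proteins are GTPases that attack membranes of vacuoles and microbes, and they respond strongly to interferon gamma. Gbp2 (ENSMUSG00000028270, chromosome 3, 142620602 to 142638008) had 41.3, 86.8 and 264 CPM in C10, 10.9, 79.9 and 154 CPM in CRS and 35.8, 85.7 and 294 CPM in CON. The highest library was CON 4 and the lowest CRS 2, 26.8-fold apart, although the group medians lay close together. Its log2 fold change was 0.64 ± 0.56 SE in C10 against CRS (edgeR adjusted p = 0.676) and -0.58 ± 0.56 in CRS against CON (edgeR adjusted p = 0.662). In C10 against CRS it ran from 0.28 without C10 3 to 0.93 without CRS 1, and it was 0.40 without CRS 2. In CRS against CON it ran from -0.87 without CRS 1 to -0.09 without CON 4, and it was -0.35 without CRS 2. Gbp3 had 19.1, 33.6 and 80.9 CPM in C10, 4.39, 33.4 and 51.5 CPM in CRS and 13.6, 29.0 and 79.9 CPM in CON. Gbp7 followed both, and the Gbp genes share enough sequence that reads may be divided between them.

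Parp9 and Parp14 transfer ADP-ribose to proteins, and Parp14 is also known as a cofactor of Stat6 in the response to interleukin 4. Parp14 had 60.6, 69.4 and 117 CPM in C10, 36.4, 67.7 and 123 CPM in CRS and 63.6, 83.9 and 121 CPM in CON. In CRS against CON its log2 fold change was -0.26 ± 0.25 SE (edgeR adjusted p = 0.662), and it ran from -0.48 without CRS 1 to -0.12 without CRS 2. Parp9 overlaps Dtx3l, its protein partner, on the opposite strand, and had a mean of 871 counts per library beside 928 for Dtx3l. Lgals3bp had 160.4, 281 and 405 CPM in C10, 105, 234 and 414 CPM in CRS and 197, 304 and 424 CPM in CON. It had the smallest p below 0 in both comparisons with CON: -0.13 ± 0.27 SE on the log2 scale in C10 against CON (edgeR adjusted p = 0.875) and -0.35 ± 0.27 in CRS against CON (edgeR adjusted p = 0.578). The value in C10 against CON ran from -0.27 without C10 3 to -0.015 without CON 4, and that in CRS against CON from -0.58 without CRS 1 to -0.20 without CRS 2. Trim30a, a TRIM protein that limits NF-kB signalling in mice, had 10.8, 12.7 and 35.001 CPM in C10, 2.91, 17.7 and 42.7 CPM in CRS and 13.1, 20.3 and 32.3 CPM in CON. Its log2 fold change of -0.14 ± 0.46 SE in C10 against CON (edgeR adjusted p = 0.925) turned to 0.014 without CON 4, and it was -0.38 without C10 1.

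Ifi35, a protein that binds other interferon-induced factors, varied least of all members. It had 25.7, 29.8 and 33.7 CPM in C10, 22.9, 31.0 and 36.8 CPM in CRS and 24.1, 26.2 and 29.0 CPM in CON, a 1.61-fold range. In CRS against CON it was the other member with an unadjusted p under 0.05 (log2 fold change 0.22 ± 0.10 SE, edgeR adjusted p = 0.343). Ifi44 ranged 6.55-fold over the libraries. Xaf1, an antagonist of an inhibitor of cell death, ranged 5.84-fold, and Rtp4, which helps bring receptors to the cell surface, 4.79-fold. Rtp4 overlaps Masp1 on the opposite strand.

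Spread between libraries of a group was the main feature of these genes. The median within-group SD over the members was 0.57 on the log2 scale, against 0.28 over all genes tested, and 33 of 36 members lay above that value. Without CRS 2 the medians were 0.45 and 0.27. The members moved together: over 630 pairs of members the median Pearson r of log2 CPM was 0.80 across 18 libraries and 0.71 without CRS 2. With the group means removed it was 0.83. The mean r was 0.72 for the members and 0.0015 for all pairs of genes tested, or 0.65 and 0.0014 without CRS 2. In the mean over all pairs, positive and negative values cancel, so it does not show how other sets of related genes move together. Of the 630 pairs, 619 were above 0 and 548 above 0.5. The points of each correlation share the libraries, their depth and their cell makeup, so these values are a description. One component held 83.3% of the members' variance across the 18 libraries and 74.3% without CRS 2, whereas the leading component of all genes tested held 32.7%.

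**Figure D3:**
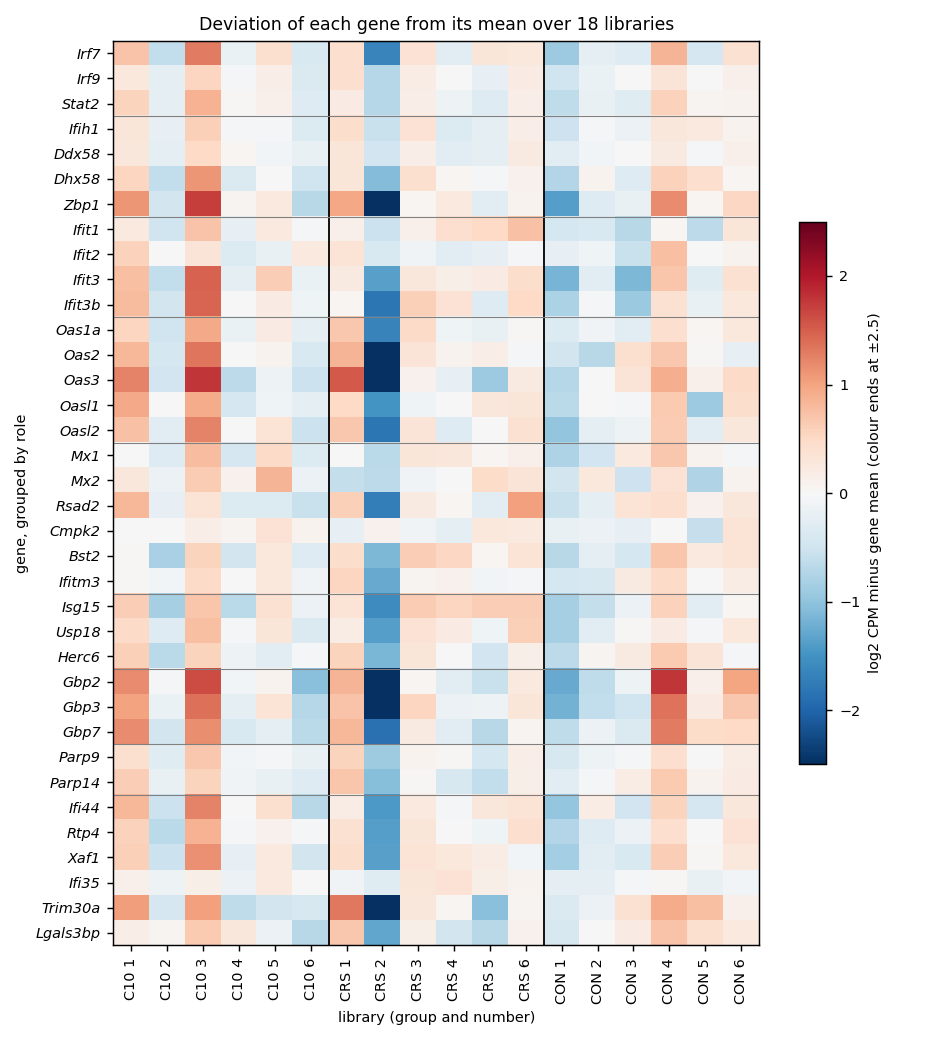
Deviation of each gene from its own mean over 18 libraries, in log2 CPM, with genes in rows ordered by role and libraries in columns ordered C10, CRS, CON. Columns stand out more than groups: CRS 2 is low in nearly every row, C10 3, C10 1 and CON 4 are high and CON 1 is low.

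Single libraries set the ends of the range. The mean log2 CPM of the 36 genes was 5.35 in C10 3, 5.04 in C10 1 and 4.10 to 4.58 in the other C10 libraries. It was 3.06 in CRS 2 and 4.32 to 4.91 in the other CRS libraries. In CON it was 5.06 in CON 4, 3.80 in CON 1 and 4.25 to 4.70 in the others. The groups averaged 4.58 ± 0.51 in C10, 4.36 ± 0.67 in CRS and 4.42 ± 0.43 in CON (SD, n = 6 each), and without CRS 2 the CRS mean was 4.62 ± 0.23 (SD, n = 5). The groups differed by less than the SD within any of them. CRS 2 was the lowest library for 31 of the 36 genes, where 11.5% of all genes tested were lowest there. C10 3 was the highest for 21, where 3.67% of all genes were highest there, and CON 4 for 6, CRS 1 for 3 and CRS 6 for 2. The genes not lowest in CRS 2 were Ifit1, Ifit2, Mx1, Mx2 and Cmpk2.

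How closely a gene followed the rest differed between members. Each gene's log2 CPM was correlated with the mean of the other 35, over 18 libraries. Zbp1, Oasl2 and Gbp3 had the highest r, 0.98, 0.97 and 0.97, and 29 of 36 genes had an r over 0.8, or 22 of 36 without CRS 2. The loosest were Cmpk2 at 0.09, Mx2 at 0.51, Ifi35 at 0.57, Ifit1 at 0.62 and Ifit2 at 0.65. Without CRS 2 these were 0.23, 0.39, 0.45, 0.60 and 0.65. Genes with the ISRE letters in their window had a median r of 0.89 (range 0.62 to 0.97) and those with a window and no match 0.87 (range 0.09 to 0.97), and the ranges overlapped.

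**Figure D4:**
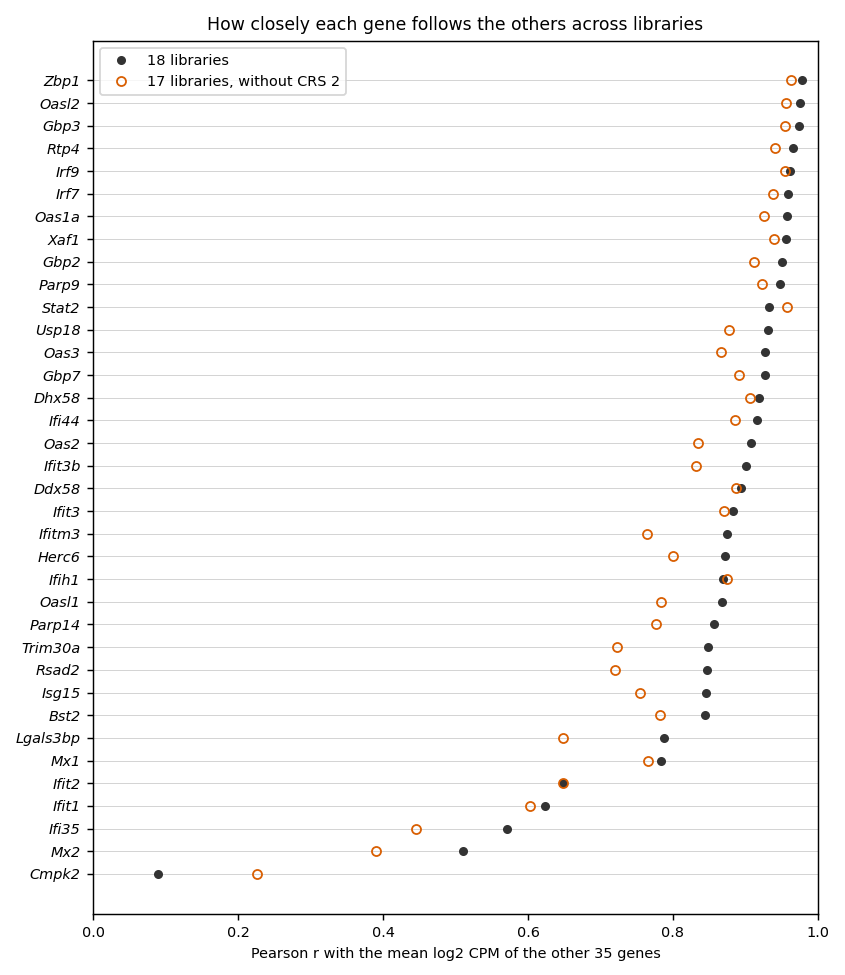
Pearson r of each gene with the mean log2 CPM of the other 35 genes, over 18 libraries (filled points) and over 17 libraries without CRS 2 (open circles). Genes are ordered by the filled points. Most lie above 0.8, and Cmpk2 lies near 0.

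Several members lie side by side in the genome, and most such neighbours moved together. Gbp2, Gbp3 and Gbp7 span 108 kb of chromosome 3, with a median r of 0.95. Oas1a, Oas2 and Oas3 span 177 kb of chromosome 5, with a median r of 0.92, and Oasl1 and Oasl2, also on chromosome 5, had an r of 0.89. Parp9 and Parp14 on chromosome 16 had 0.93. The 4 Ifit genes span 99.3 kb of chromosome 19 with a median of 0.69, and Mx1 and Mx2 on chromosome 16 had 0.50. Rsad2 and Cmpk2, within 37.1 kb on chromosome 12, had an r of -0.08, and 0.00018 without CRS 2. Without CRS 2 the values were 0.92 for the Gbp genes, 0.81 for the Oas genes, 0.82 for Oasl1 and Oasl2, 0.90 for the Parp genes, 0.68 for the Ifit genes and 0.42 for the Mx genes. Reads of neighbours that share sequence may be divided between them, and the part of this in their r was not tested.

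The ligands themselves were close to or below detection. Of 21 interferon genes, 0 passed the filter, 13 had no count in any library and 7 had 1 to 15 counts over all 18. Of 14 interferon alpha genes, 13 had none. Ifnb1, the early type I interferon, had 0 counts over the C10 libraries, 0 over CRS and 1 over CON. Interferon gamma was the exception: Ifng had 1, 6.5 and 24 counts as lowest, median and highest library in C10, 0, 7 and 13 in CRS and 3, 7 and 24 in CON. The CRS library with 0 was CRS 2, and C10 3 and CON 6 held 24 each. Summed over 6 libraries, Ifng had 50 counts in C10, 41 in CRS and 58 in CON. Ifne, an interferon of epithelia, had 13 counts in C10, all in C10 6, 0 in CRS and 1 in CON. With all 18 libraries Ifng did not pass the filter, and it passed in the fit without CRS 2. Whether leaving out other libraries also let it pass is not given here. Without CRS 2 the log2 fold change of Ifng was -0.0015 ± 0.62 SE in C10 against CRS (edgeR adjusted p = 0.999). It was -0.13 ± 0.60 in C10 against CON (edgeR adjusted p = 0.941) and -0.13 ± 0.63 in CRS against CON (edgeR adjusted p = 0.954).

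Receptors, kinases and upstream genes were read from lists of the pathway. Of 10 receptor and kinase genes, 0 were called in any comparison, and likewise 0 of 7 other IRF factors, 0 of 11 sensors and adaptors upstream of interferon, 0 of 7 brakes and 0 of 5 tested genes that remove self nucleic acid. Over all genes tested, edgeR called 0.0820% in C10 against CRS, 0.159% in C10 against CON and 0.00547% in CRS against CON. Irf1, an early factor of the interferon gamma response, had 50.4, 65.9 and 115 CPM in C10, 26.7, 79.3 and 118 CPM in CRS and 42.0, 78.5 and 139 CPM in CON.

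Several pathway genes had small p-values without passing. Il10rb, a receptor chain for interferon lambda and interleukin 10, had a log2 fold change of -0.35 ± 0.14 SE in C10 against CRS (edgeR adjusted p = 0.272), and it passed only with CRS 2 and CRS 5 both left out (-0.52, edgeR adjusted p = 0.0485). Tlr3, a sensor of double-stranded RNA in endosomes, stood at -0.26 ± 0.12 in C10 against CRS (edgeR adjusted p = 0.373) and -0.27 ± 0.12 in C10 against CON (edgeR adjusted p = 0.353). Pias4, which restrains interferon signalling, had the smallest p of the listed genes, with -0.21 ± 0.08 in C10 against CRS (edgeR adjusted p = 0.237) and 0.27 ± 0.08 in CRS against CON (edgeR adjusted p = 0.211). The CRS libraries enter both values with opposite sign. Pias4 in CRS against CON passed with limma-voom (0.26, adjusted p = 0.0422). Irf2, a factor that competes with Irf1, stood at 0.21 ± 0.10 in C10 against CRS (edgeR adjusted p = 0.358) and passed with limma-voom (0.29, adjusted p = 0.0473). Jak1, a receptor kinase, stood at -0.17 ± 0.10 in CRS against CON (edgeR adjusted p = 0.456), and passed without CRS 1 (-0.28, edgeR adjusted p = 0.0474), where 5.39% of all genes were called. Rnaseh2c, a subunit of an enzyme that removes RNA from DNA, stood at -0.32 ± 0.12 in C10 against CRS (edgeR adjusted p = 0.257). Rnaseh2a, the catalytic subunit, stood at 0.25 ± 0.11 in C10 against CON (edgeR adjusted p = 0.312). Trex1, a DNA-degrading enzyme of that list, had 0 counts in all libraries and was not tested.

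The 40 further interferon-induced genes had 0 calls in each comparison, as did the 18 tested genes that interferon gamma induces and the 17 genes of MHC class I presentation. Among all genes tested, edgeR called 0.0820% in C10 against CRS, 0.159% in C10 against CON and 0.00547% in CRS against CON. At such shares, 0 calls do not set these lists apart. In CRS 2, 31 of the 40, 17 of the 18 and 16 of the 17 were at their lowest. Cxcl10, a chemokine for T cells, had 5.55, 12.5 and 29.3 CPM in C10, 0.866, 15.4 and 23.6 CPM in CRS and 4.15, 10.5 and 47.2 CPM in CON. B2m, the light chain of MHC class I, had 371, 648 and 1353 CPM in C10, 171, 774 and 1341 CPM in CRS and 377, 762 and 1330 CPM in CON. Both were lowest in CRS 2 by a wide margin. Median log2 fold changes over the interferon gamma list were 0.39 in C10 against CRS, -0.03 in C10 against CON and -0.40 in CRS against CON. Without CRS 2 they were 0.14 in C10 against CRS and -0.17 in CRS against CON, and without C10 3 they were 0.03 in C10 against CRS and -0.31 in C10 against CON. Without CON 4 they were 0.40 in C10 against CON and -0.01 in CRS against CON. Ifit1bl2, a relative of Ifit1, had a log2 fold change of 0.60 ± 0.27 SE in C10 against CON (edgeR adjusted p = 0.358) and 0.73 ± 0.27 in CRS against CON (edgeR adjusted p = 0.267), and the CRS value passed with limma-voom (1.01, adjusted p = 0.0389). Ifi27l2a stood at 0.72 ± 0.33 in CRS against CON (edgeR adjusted p = 0.333). Tgtp1, a GTPase induced by interferon gamma, stood at 0.97 ± 0.67 in C10 against CRS (edgeR adjusted p = 0.568) and 0.37 ± 0.66 in C10 against CON (edgeR adjusted p = 0.847), and the sign in C10 against CON turned without C10 1 (-0.031). Tap1 and Nlrc5, the activator of MHC class I genes, stood at 0.30 ± 0.45 and 0.28 ± 0.47 in C10 against CRS, and both signs turned without C10 3 (-0.0067 and -0.013). The other genes of smallest p in their lists also did not pass.

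Genes outside the set whose level was most like its mean were found by Pearson r over 18 libraries, among 18255 genes. Among the 10 closest were Gbp5, Uba7, Tap1, H2-Q4, Irf1, Tap2, AW112010, Irgm1 and Psmb8 (each 0.96), and 87 genes had an r over 0.9, against a median of -0.03. Without CRS 2, 30 genes did, and among the 10 closest were Tap2 (0.95), Irgm1, Trafd1, Uba7, Psmb10, Irf1, Gbp5, Tap1 and H2-Q4 (0.93). Tap1 and Tap2 carry peptides to MHC class I, Psmb8 and Psmb10 are subunits of the immunoproteasome, and Uba7 starts the attachment of Isg15.

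Summed markers of immune cells were lowest in CRS 2, as were most members, while their next lowest and highest libraries were not always those of the members. CRS 5 came next lowest for T and NK cells, macrophages and neutrophils, at 27.5, 890 and 70.9 CPM. The mean log2 CPM of the 36 members in CRS 5 was 4.32, above that of CON 1 at 3.80. For T and NK cells all 11 markers were in the table and none was at 0 in all libraries. Their summed level ran from 35.7 to 119 CPM in C10, from 8.23 to 133 CPM in CRS and from 29.5 to 116 CPM in CON. The low end in CRS was CRS 2, against 27.5 CPM or more in the other CRS libraries, and C10 3, CRS 1 and CON 4 were the highest of their groups. For macrophages and monocytes (12 of 12 markers) the sums ran from 1161 to 2208 CPM in C10, from 494 to 3983 CPM in CRS and from 1603 to 3977 CPM in CON. CRS 2 held the lowest of all 18 libraries, and CRS 1 and CON 5 were the highest of CRS and of CON. For neutrophils (8 of 8 markers) the sums were 159.6 to 388 CPM in C10, 28.6 to 458 CPM in CRS and 208 to 544 CPM in CON, with CRS 2 the lowest and CON 3 the highest. For plasmacytoid dendritic cells, a main source of interferon alpha (5 of 5 markers), they were 123 to 192 CPM in C10, 97.0 to 337 CPM in CRS and 158 to 199 CPM in CON, with CRS 2 the lowest and CRS 4 the highest. None of the markers of these 3 lists was at 0 in all libraries. Markers of olfactory neurons (7 of 7) went the other way, at 8454 CPM in CRS 2 against 3312 to 8128 CPM in the other CRS libraries, 4232 to 7352 CPM in C10 and 2860 to 6968 CPM in CON. The marker lists also differed in their median log2 fold change between groups. EdgeR called 0 markers of the lists named here in any comparison, where it called 0.0820% of all genes in C10 against CRS, 0.159% in C10 against CON and 0.00547% in CRS against CON. For T and NK cells the median was 0.67 in C10 against CRS with 10 of 11 markers above 0, 0.23 in C10 against CON with 10 above 0, and -0.24 in CRS against CON with 0 above 0, and without CRS 2 it was 0.41 in C10 against CRS and 0.011 in CRS against CON. For macrophages and monocytes it was -0.32 in C10 against CRS with 4 of 12 above 0, -0.75 in C10 against CON with 1 above 0 and -0.43 in CRS against CON with 0 above 0. Without CRS 2 the macrophage and monocyte median was -0.51 in C10 against CRS and -0.25 in CRS against CON. Neutrophil markers stood at 0.33 in C10 against CRS with 6 of 6 tested markers above 0, or 0.085 without CRS 2. They stood at -0.20 in C10 against CON and at -0.58 in CRS against CON, or -0.34 without CRS 2 in the latter. Plasmacytoid dendritic cell markers, 4 of them tested, stood at 0.33 in C10 against CRS, 0.16 in C10 against CON and 0.021 in CRS against CON. Without C10 3 they stood at -0.0012 in C10 against CRS and -0.16 in C10 against CON. The summed level of all 5 went the other way, with medians of 143 CPM in C10, 211 CPM in CRS and 176 CPM in CON. Few markers carried this sum: it was 337 CPM in CRS 4, where the 4 tested markers averaged 3.71 in log2 CPM. Whether these markers are particular to plasmacytoid dendritic cells in this tissue was not tested, so neither value is a measure of those cells. Fibroblast markers, 7 in all, stood at -0.25 in C10 against CRS with 2 above 0, -0.68 in C10 against CON with 0 above 0 and -0.54 in CRS against CON with 0 above 0. The members' own medians were 0.19 in C10 against CRS, 0.20 in C10 against CON and 0.017 in CRS against CON, and the part of cell makeup in their levels was not tested.

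**Figure D5:**
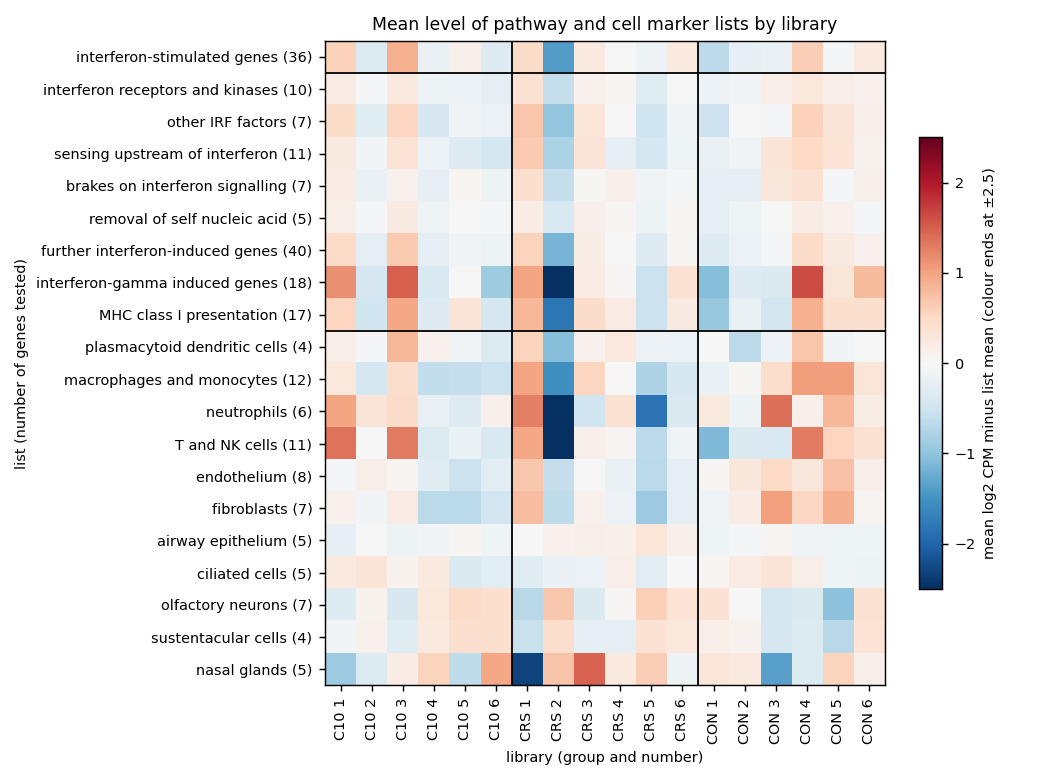
Mean log2 CPM of the 36 genes, of lists of the interferon pathway and of cell markers in each library, as the deviation from each list's mean over 18 libraries (number of genes tested in brackets), with libraries ordered C10, CRS, CON. CRS 2 is low for the interferon lists, macrophages, neutrophils and T and NK cells, and not for airway epithelium, olfactory neurons or nasal glands.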

How the data were processed

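The authors' deposited table holds raw read counts per gene, 1 column per library, with whole numbers, and a second deposited table, with FPKM values computed by the authors, covers the same libraries, per the file headers. Both were matched to 18 libraries by column name, and 0 columns were left over. The submitters' processing notes name the build mm10; aligner, counter and gene annotation are each not given in the sources used here, and the labels' protocols name a kit without saying that it marks strand. The FPKM values served for levels between genes and for 1 kind of alternative.

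Counts were analysed in R 4.3.3 with edgeR 4.0.16: filterByExpr by group (18291 of 54532 genes kept), TMM factors, 1 mean per group over all 18 libraries and two-sided quasi-likelihood F-tests. A Benjamini-Hochberg adjusted p under 0.05 over all genes tested counts as called. The spread between libraries was 0.264 as a biological coefficient of variation. CPM uses TMM-scaled library sizes, and log2 CPM a prior count of 2. The fit was also run on simulated counts. The outcome is not given here, so that run says nothing on the power to call changes in the members. Over 153 pairs of libraries, the chi-square of counts was at least 14.1 per degree of freedom, so no library repeats another. Replicate numbers do not mark shared animals or days in the labels.

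The members, the lists and the tests were chosen with earlier results of these data known, so members carry no p adjusted over the list and no test as a set. Genes were named by a rule: the 3 members of highest FPKM, the 3 of smallest p in each direction per comparison, fixed members by role, the 2 genes of smallest p per pathway list and comparison (some as values, the rest by their call), and the 10 genes most like the members. A gene that this rule names is not reported here. Of the 36 members, 14 overlap another gene and 4 a protein-coding one. Alternatives were RLE size factors, no filter, a stricter filter of 1 CPM in 6 libraries, the replicate block, only the 2 groups compared, DESeq2 1.42.0, limma 3.58.1 with voom and quality weights, log2 FPKM in limma with 1 or 0.1 added, leaving out each library in turn and leaving out CRS 2 and CRS 5 together.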

Additional observations from a re-analysis of the deposited data

Results flagged for a closer look

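In groups of 6 libraries, the gap between the lowest or highest library and its neighbour was set against the group's whole range, on log2 CPM. Of 111 such groups (the 36 genes and their mean, in 3 groups), 18 held a library apart at the 95% level, and chance alone flags about 1 in 20. All 18 were CRS 2, at the low end of CRS, and since the members move together these are not independent. The mean log2 CPM of the 36 genes was 3.06 in CRS 2, and the other CRS libraries held 4.32 to 4.91. Among the factors and sensors, Irf7 had 10.1 CPM in CRS 2 against 26.6 to 43.4 CPM in the rest of the group, Dhx58 had 4.02 against 8.34 to 11.4, and Zbp1 had 2.41 against 15.5 to 37.3. Among the effectors, Ifit3 had 7.48 CPM in CRS 2 against 21.5 to 26.6 CPM in the others, Oas1a had 3.77 against 10.8 to 19.6, Oas2 had 1.11 against 6.73 to 12.8, and Oasl1 had 1.36 against 3.74 to 5.76. Mx1 had 3.34 CPM in CRS 2 against 5.35 to 6.70 CPM in the others, Bst2 had 21.7 against 48.9 to 72.7, and Ifitm3 had 78.2 against 179 to 269. Isg15 had 3.65 CPM in CRS 2 against 14.1 to 17.3 CPM in the others, and Usp18 had 8.54 against 20.7 to 33.8. Gbp2 had 10.9 CPM in CRS 2 against 58.1 to 154 CPM in the others, and Gbp3 had 4.39 against 28.1 to 51.5. Ifi44 had 3.96 CPM in CRS 2 against 10.6 to 13.8 CPM in the others, Rtp4 had 8.91 against 21.6 to 30.9, and Xaf1 had 3.34 against 8.37 to 11.9. Summed markers of T and NK cells, macrophages and neutrophils were also lowest in CRS 2, as given above, and their part was not tested.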

How the results depend on the processing

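All 3 counts of members called stayed at 0 under every alternative run. With limma-voom 1 of 36 members had an unadjusted p under 0.05 in C10 against CRS, against 3716 of all 18291 genes. The limma-voom medians were 0.06 in C10 against CRS, 0.08 in C10 against CON and 0.06 in CRS against CON. Leaving out single libraries moved the median log2 fold change of the members between 0.0059 and 0.30 in C10 against CRS, between 0.0013 and 0.30 in C10 against CON and between -0.09 and 0.17 in CRS against CON. Without CRS 2 and CRS 5 together, the medians were -0.06 with 15 of 36 genes above 0 in C10 against CRS and 0.21 with 32 above 0 in CRS against CON, and the sign turned for Tap1 and Nlrc5 in C10 against CRS (-0.091 and -0.15) and for Parp14 and Tap1 in CRS against CON (0.0098 and 0.065, against -0.26 and -0.32 over all libraries). Leaving out 1 library also turned signs: the range was -0.27 to 0.057 for Bst2, -0.38 to 0.014 for Trim30a and -0.031 to 0.85 for Tgtp1 in C10 against CON, and -0.0067 to 0.59 for Tap1 and -0.013 to 0.61 for Nlrc5 in C10 against CRS. None of these passed. Of 18 same-numbered pairs of libraries, 8 had deviations correlated over 0.1 (r from -0.57 to 0.52). By this measure 0 libraries were closest to their own number in both other groups. Whether the numbers mark a shared day or batch cannot be told from these correlations, and the labels do not say. With the replicate block 0 members were called, and the medians were 0.23 in C10 against CRS, 0.13 in C10 against CON and -0.04 in CRS against CON, with 11 genes above 0. The cause of these moves was not tested. Each member had at least 13 counts in every library.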
